A study of Homo sapiens with 12 samples.

Results

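Peak pairs of pSTAT3 (STAT3 phosphorylated on its C-terminal serine) were compared with those of BCL9 in control DCIS.com cells. The comparison used 6 of the 12 samples of a ChIP-exo study, namely all 3 libraries titled DCIScom-NS-pS727STAT3 and all 3 titled DCIScom-NS-BCL9. DCIS.com is a human basal-like breast cancer line that forms ductal carcinoma in situ, and the control (NS) cells, labelled Non-scrambled control, carry a non-silencing shRNA. The study asked where both proteins sit on chromatin, and the antibodies are set against each other here gene by gene and by genomic class. The 4 libraries of BCL9-knock down cells (2 per antibody, a BCL9 shRNA in the same line) and the single CTCF library of NS cells served only for comparison, and the IgG sample was not analysed here. Each protein was seen through a single antibody, so a difference between proteins and a difference between antibodies cannot be told apart.

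STAT3 is a transcription factor that is activated by cytokine receptors through JAK kinases and that binds a palindromic DNA element as a dimer. Phosphorylation on its serine residue modulates its transcriptional activity. BCL9 does not bind DNA itself. It is known as a co-activator that links β-catenin, held on DNA by TCF/LEF factors, to Pygopus in the Wnt pathway. AP-1 (FOS and JUN dimers) occupies many enhancers of epithelial cells, NRF1 (nuclear respiratory factor) binds GC-rich promoters, and NF-Y binds the CCAAT box of promoters.

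The antibodies differed in part in the genes and promoter sequences that they marked. At equal list length, 268 genes had a pair in all 6 libraries. Of the 1266 tested genes with pairs of both antibodies, 12.2% differed at a limma adjusted p under 0.05. The largest rank differences in favour of pSTAT3 were at EXOC8/SPRTN, TAGLN3 and AMN1, where BCL9 had weak pairs or none. The largest in favour of BCL9 were at SPATC1L, SLC25A25/NAIF1, DRC3/TOM1L2 and SP2, where pSTAT3 had weak pairs or none. Promoter windows of pSTAT3 carried the AP-1 string in 28.2% ± 5.17 (SD, n = 3) and an NRF1-type string in 8.03% ± 2.17, against 5.38% ± 1.82 and 0.933% ± 0.117 with BCL9. The NF-Y string went the other way, with 2.09% ± 0.522 of pSTAT3 and 12.2% ± 0.716 of BCL9 promoter windows. LAMB3, WWTR1 and IL1RAP ranked high with both antibodies in every library.

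The windows below carry these differences. All are plus-strand GRCh37 sequence (the same assembly as hg19). Most are centred on the midpoint of the strongest peak pair and shortened where untranslated exon begins. The 30-base windows of EXOC8/SPRTN and MTMR11 were instead placed around the matched string, so its position there does not show the centre of the pair. Capitals mark the AP-1 string TGACTCA, the NRF1-type string GCGCNTGCG or the pentamer CCAAT, each on either strand. The first 6 are genes that ranked higher with pSTAT3, printed because they show the NRF1-type string at promoters or the AP-1 string away from them. Of the 10 genes with the largest pSTAT3 differences, 5 had the NRF1-type string, 3 the AP-1 string and 2, ZNF652 and ADI1, neither. EXOC8 and SPRTN share a window but were counted separately.

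EXOC8 and SPRTN (chr1:231473634-231473663): cgtcagacactGCGCCTGCGcaagtgggcc
ANKRD26 (chr10:27389424-27389516): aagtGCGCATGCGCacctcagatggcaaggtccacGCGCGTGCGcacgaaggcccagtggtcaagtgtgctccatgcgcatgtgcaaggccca
N6AMT1 (chr21:30257694-30257740): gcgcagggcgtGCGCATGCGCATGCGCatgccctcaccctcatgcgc
TAGLN3 (chr3:111721381-111721480): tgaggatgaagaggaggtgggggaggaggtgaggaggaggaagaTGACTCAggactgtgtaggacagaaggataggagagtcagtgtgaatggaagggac
AMN1 (chr12:31885967-31886066): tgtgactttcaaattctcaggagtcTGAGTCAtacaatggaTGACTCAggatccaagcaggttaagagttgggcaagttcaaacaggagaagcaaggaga
MTMR11 (chr1:149911120-149911149): gactcacaagaTGAGTCAcagatccagtta

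The next 5 are genes that ranked higher with BCL9. All lie upstream of the gene's own start, and SPATC1L is shown as a tandem repeat. Of the 10 genes with the largest BCL9 differences, 8 had the CCAAT pentamer in the strongest window, and SPATC1L and SLC35E2B did not. These are not 10 separate windows, since SLC25A25 and NAIF1, DRC3 and TOM1L2, and ANKHD1 and its readthrough gene share promoters. Over all BCL9 promoter windows the pentamer was in 22.3% ± 0.469.

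SLC25A25 and NAIF1 (chr9:130829707-130829806): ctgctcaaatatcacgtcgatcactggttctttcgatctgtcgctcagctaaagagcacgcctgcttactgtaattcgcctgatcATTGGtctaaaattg
DRC3 and TOM1L2 (chr17:17875899-17875998): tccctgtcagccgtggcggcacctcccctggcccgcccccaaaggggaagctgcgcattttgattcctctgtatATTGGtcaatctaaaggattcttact
SP2 (chr17:45973355-45973454): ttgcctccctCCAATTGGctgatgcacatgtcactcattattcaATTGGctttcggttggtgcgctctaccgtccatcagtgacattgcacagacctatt
ANKHD1 (chr5:139781178-139781277): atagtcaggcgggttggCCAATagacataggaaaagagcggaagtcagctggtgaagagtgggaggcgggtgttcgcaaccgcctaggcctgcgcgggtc
SPATC1L (chr21:47604391-47604484): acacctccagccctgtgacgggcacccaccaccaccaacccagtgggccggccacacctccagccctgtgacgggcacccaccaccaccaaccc

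The last 2 are from genes that were high with both antibodies and are printed for their AP-1 string, which 7 of those 10 genes had and IL1RAP, SAP30BP and CCL20 did not. Each window is from the antibody with the higher mean level, here BCL9 replicate 2 for LAMB3 and BCL9 replicate 3 for GADD45A. The strongest pair of the other antibody can lie elsewhere, as it does at LAMB3.

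LAMB3 (chr1:209826444-209826543): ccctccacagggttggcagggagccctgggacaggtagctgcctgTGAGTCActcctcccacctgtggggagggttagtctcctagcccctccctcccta
GADD45A (chr1:68152448-68152547): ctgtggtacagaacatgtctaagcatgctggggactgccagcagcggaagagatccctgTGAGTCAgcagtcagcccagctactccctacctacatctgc

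A peak pair is a left and a right exonuclease border, and its signal is a whole number of tags times a constant of the library. The lists were unequal, with 118933, 98665 and 374089 pairs for pSTAT3 replicates 1, 2 and 3 and 28690, 24728 and 148755 for BCL9. The comparison therefore took the 24728 strongest pairs of every list, which ended at 9, 8 and 19 tags for pSTAT3 and at 5, 9 and 10 tags for BCL9. The rank level of a gene is log2(24728 / rank of its strongest pair within 5 kb of a transcription start site, TSS) + 1, and it is 0 for a gene without a pair. A level of 15.6 is the first rank of a list, and each step of 1 on this log2 scale is a 2-fold better rank. Ranks carry no absolute amount, so fewer cells with the protein bound and less protein bound per cell cannot be told apart.

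Fewer genes had a pSTAT3 pair than a BCL9 pair. Of 19748 protein-coding genes, 1161, 2018 and 1206 had a pair in the pSTAT3 libraries and 2879, 2711 and 2203 in the BCL9 libraries. The shares were 7.40% ± 2.44 with pSTAT3 and 13.2% ± 1.78 with BCL9 (n = 3 each), and the libraries did not overlap. An exact permutation test of 3 against 3 gave p = 0.1, the smallest it allows. With the knockdown libraries added and antibodies permuted within condition (120 assignments), the exact p was 0.0167, again the smallest possible. This order depended on the cut: with all listed pairs the difference was 24.6 percentage points in favour of pSTAT3 (exact permutation p = 0.3), and with pairs of at least 9 tags it was 1.72 points (exact permutation p = 0.8). Pairs of pSTAT3 also lay closer together, with 2.49 ± 0.626 pairs per merged window against 1.62 ± 0.0668.

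By genomic class, BCL9 lay nearer to promoters. Pairs within 1 kb of a TSS were 5.68%, 6.47% and 5.58% of the pSTAT3 lists and 11.1%, 9.997% and 8.41% of the BCL9 lists. The mean shares were 5.91% ± 0.488 and 9.85% ± 1.37, and no pSTAT3 library reached the lowest BCL9 library. Intergenic pairs made up 49.2% ± 0.628 with pSTAT3 and 45.6% ± 1.02 with BCL9. Both differences had an exact permutation p of 0.1 (adjusted over the 5 classes, 0.25) and an exact within-condition p of 0.0167 (adjusted 0.0417). Shares from 1 to 5 kb of a TSS (9.62% ± 0.208 and 9.48% ± 0.374), in introns (33.9% ± 0.197 and 33.6% ± 0.715) and in exons (1.31% ± 0.109 and 1.496% ± 0.160) overlapped between antibodies. Among the 1000 strongest pairs, the promoter share was 5.8%, 5.7% and 5.8% with pSTAT3 and 16%, 13.8% and 6.3% with BCL9, so BCL9 replicate 3 was close to the pSTAT3 libraries at the top of its list. The CTCF library had 8.92% of its pairs at promoters. With all listed pairs the promoter difference was -2.40 points (exact permutation p = 0.2) and the intergenic difference 0.718 points (p = 0.3).

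**Figure D1:**
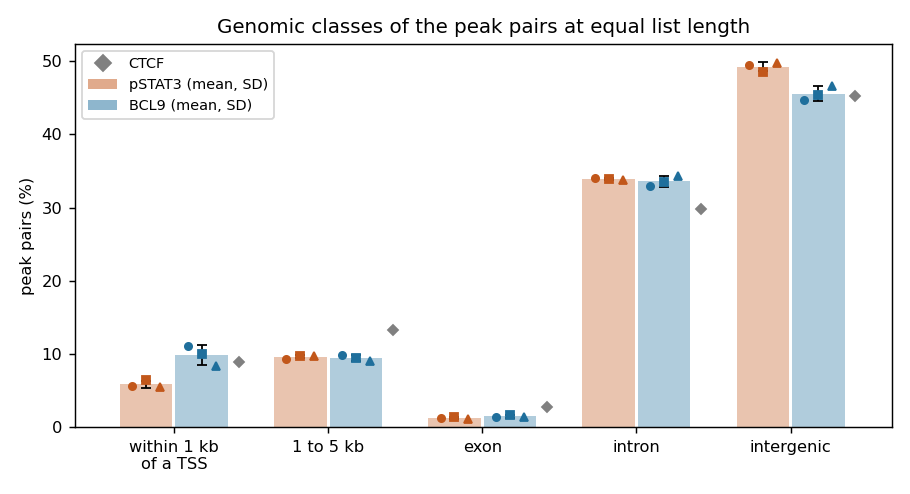
Share of the 24728 strongest peak pairs of each library by genomic class (y axis, percent; bars are means of 3 libraries, orange for pSTAT3 and blue for BCL9, error bars SD, circles, squares and triangles are replicates 1, 2 and 3, grey diamonds the CTCF library). The BCL9 points lie above the pSTAT3 points within 1 kb of a TSS (9.85% against 5.91%) and below them in intergenic DNA (45.6% against 49.2%).

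Gene by gene, 1700 genes had a pair in at least 3 of the 6 libraries and were tested with limma. At an adjusted p under 0.05, 189 genes ranked higher with pSTAT3, which is 11.1% of those tested, and 382 ranked higher with BCL9, which is 22.5%. The median difference over all tested genes was -0.52, and neighbouring genes can share a pair, so the calls came from 166 and 310 distinct sites. The filter admitted 434 genes through a single antibody, and a difference at these was fixed by the filter: they made up 115 of the 189 and 301 of the 382 calls. This holds for every gene named below with level 0 in all 3 libraries of an antibody. The limma p-value printed for such a gene is not support for a difference. Among the 1266 tested genes with pairs of both antibodies, 74 ranked higher with pSTAT3 and 81 with BCL9 (12.2% called). The libraries of the antibodies did not overlap at 716 genes (42.1% of those tested). These include the 434 genes admitted through a single antibody, where the lack of overlap was also fixed by the filter. The split of the calls differed between settings: with the 10000 strongest pairs it was 113 and 205 genes (median difference -0.57), with all listed pairs 118 and 48 genes (median difference 0.85), with pairs of at least 9 tags 80 and 61 (median 0.46), and with ranks among gene-linked pairs only 200 and 274 (median -0.21). Without pSTAT3 replicate 1, 2 or 3, 77, 53 and 47 genes ranked higher with pSTAT3 and 93, 87 and 82 with BCL9. Without BCL9 replicate 1, 2 or 3 the numbers were 64, 80 and 90 genes with pSTAT3 and 214, 251 and 274 with BCL9.

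The genes called for BCL9 mostly had their strongest pair at a promoter. This pair lay within 1 kb of the gene's own TSS at 254 of 382 genes (66.5%), with 204 of them upstream, against 81 of 189 (42.9%) at the genes called for pSTAT3 and 445 of 1129 (39.4%) at genes not called. The position is that of the antibody with the higher mean level, and 301 of the 382 genes had pairs of BCL9 alone. These shares thus restate the promoter shares of the lists and are not separate support. Libraries of the same antibody also shared more genes with each other than with the other antibody, with Jaccard indices of 0.348 to 0.503 within pSTAT3, 0.295 to 0.306 within BCL9 and 0.175 to 0.242 between them. Where both antibodies had a pair in at least 2 libraries (647 genes), their strongest pairs were a median of 507 bp apart, with 191 genes (29.5%) within 100 bp and 271 (41.9%) over 1 kb apart. The median distance between libraries of the same antibody at these genes was 84 bp for pSTAT3 and 442 bp for BCL9.

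EXOC8 and SPRTN, which encode an exocyst subunit and a protease that removes DNA-protein crosslinks, share the promoter with the highest pSTAT3 level that BCL9 lacked. The strongest pair lay 52 bp upstream of the EXOC8 start, with the NRF1-type string printed above in its 100 bp window. Its rank level was 9.91, 13.4 and 10.7 in the pSTAT3 libraries and 0 in each BCL9 library (difference 11.35 ± 1.09 SE, limma adjusted p = 0.000346). In the uncut lists it held 80, 126 and 160 tags with pSTAT3, and BCL9 had a pair of 8 tags in replicate 3 and none in replicates 1 and 2. Every pSTAT3 library thus stood far above every BCL9 library. EXOC8 and SPRTN passed the filter through pSTAT3 alone, so the limma p-value adds no support for the difference.

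ANKRD26, N6AMT1 and RFX2 followed the same pattern at their promoters. ANKRD26, an ankyrin-repeat protein, had levels of 7.31, 8.67 and 3.50 with pSTAT3 and 0 in all BCL9 libraries (difference 6.49 ± 1.26 SE, limma adjusted p = 0.00871). N6AMT1, a methyltransferase that modifies a translation release factor, had 6.91, 6.62 and 5.53 with pSTAT3 and 0 with BCL9 (difference 6.36 ± 0.82 SE, limma adjusted p = 0.00127). RFX2, a transcription factor of ciliated cells, had 7.44, 6.75 and 4.45 with pSTAT3 and 0 with BCL9 (difference 6.21 ± 0.96 SE, limma adjusted p = 0.0035). The strongest pairs of these genes lay 44, 2 and 112 bp upstream of their own TSS, and each window held the NRF1-type string.

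TAGLN3, AMN1 and MTMR11 were pSTAT3 genes with the AP-1 string in the strongest window, at 1812 bp downstream and 3962 and 2370 bp upstream of their starts. TAGLN3, a transgelin family member, had levels of 9.42, 8.36 and 7.65 with pSTAT3 and 0 in each BCL9 library (difference 8.48 ± 0.87 SE, limma adjusted p = 0.000415). AMN1 had 8.06, 7.36 and 8.95 with pSTAT3 and 2.71, 0 and 0 with BCL9 (difference 7.22 ± 1.04 SE, limma adjusted p = 0.00251). MTMR11, a myotubularin-related protein, had 4.63, 9.06 and 8.75 with pSTAT3 and 2.04, 0 and 0 with BCL9 (difference 6.80 ± 1.29 SE, limma adjusted p = 0.00856). ZNF652, a zinc-finger repressor, and ADI1, an enzyme of methionine salvage, completed the 10 genes with the largest differences, and their windows held none of the 3 strings.

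SPATC1L had the first rank in every BCL9 list. Its pair, 45 bp upstream of the start, held 116, 159 and 269 tags in the BCL9 libraries and 4, 8 and 4 tags in the uncut pSTAT3 lists (level difference -15.59 ± 0.88 SE, limma adjusted p = 1.15e-05). It also ranked first in both BCL9 libraries of knockdown cells, with 412 and 271 tags, and the CTCF list of equal length had no pair there. The sequence repeats with a period of 53 bp, and in the printed window a stretch of 41 bases recurs unchanged. Whether reads could be assigned to a single copy of the repeat was not tested, so the tag number at SPATC1L is uncertain.

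SLC25A25 and NAIF1, which encode a mitochondrial ATP-Mg/phosphate carrier and a nuclear protein that induces apoptosis, share a BCL9 pair 158 bp upstream of NAIF1. The level was 10.1, 12.1 and 12.6 with BCL9 and 0 in each pSTAT3 library (difference -11.62 ± 0.98 SE, limma adjusted p = 0.000145), with 31, 76 and 111 tags, against 5, 0 and 8 tags near SLC25A25 and 0, 0 and 5 near NAIF1 in the uncut pSTAT3 lists. SP2, a transcription factor of the SP/KLF family, had BCL9 levels of 10.98, 10.49 and 10.92 and pSTAT3 levels of 0 (difference -10.80 ± 0.85 SE, limma adjusted p = 0.000143). The pair lay 111 bp upstream of the SP2 start, beside several CCAAT pentamers. DRC3, a subunit of the ciliary dynein regulatory complex, shares its promoter with TOM1L2, an endosomal trafficking protein, and had 9.69, 9.94 and 14.0 with BCL9 and 0 with pSTAT3 (difference -11.21 ± 1.23 SE, limma adjusted p = 0.000754). TOM1L2 also had a weak pSTAT3 pair at another of its starts in replicate 2 (level 1.25).

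NLK, the Nemo-like kinase that phosphorylates TCF/LEF factors, was the Wnt-related gene among the 10 largest BCL9 differences. Its level was 11.6, 9.18 and 6.09 with BCL9 and 0 with pSTAT3 (difference -8.95 ± 1.30 SE, limma adjusted p = 0.0026), at 1054 bp upstream of the nearest start of a protein-coding transcript, and the pair held 44, 48 and 45 tags. ANKHD1 (and the readthrough gene ANKHD1-EIF4EBP3 at the same promoter) had 9.89, 10.98 and 7.85, and SLC35E2B, of a nucleotide-sugar transporter family, had 8.72, 11.2 and 7.38, with all pSTAT3 levels at 0. At none of these BCL9 genes did a pSTAT3 pair in the uncut lists exceed 15 tags.

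**Figure D2:**
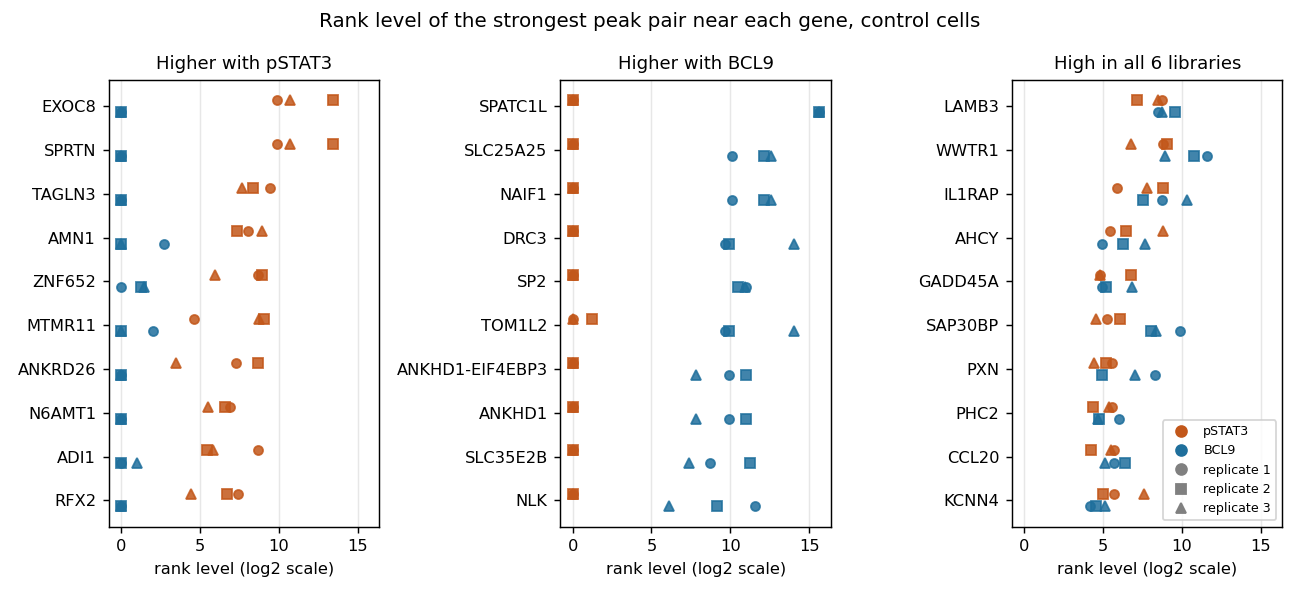
Rank level (x axis, log2 scale; 0 means no pair in the compared list) of the strongest peak pair at the 10 genes with the largest difference in each direction and the 10 genes with the highest level in their lowest library. Orange is pSTAT3, blue is BCL9, and circles, squares and triangles are replicates 1, 2 and 3; at SPATC1L all BCL9 points lie at 15.6 and all pSTAT3 points at 0.

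The 10 genes with the highest level in their lowest library came from varied functions. At 7 of them the AP-1 string was in the strongest window of the antibody with the higher mean level. LAMB3, the β3 chain of laminin-332 in the epithelial basement membrane, had levels of 8.71, 7.12 and 8.45 with pSTAT3 and 8.49, 9.58 and 8.72 with BCL9 (difference -0.84 ± 0.97 SE, limma adjusted p = 0.563). WWTR1, which encodes the Hippo pathway co-activator TAZ, had 8.79, 9.06 and 6.78 with pSTAT3 and 11.6, 10.8 and 8.94 with BCL9 (difference -2.22 ± 1.12 SE, limma adjusted p = 0.176). At both genes the groups overlapped, and a p above the threshold does not show equal occupancy. At WWTR1 the strongest pairs of the antibodies were 77 bp apart at the median, whereas at LAMB3 they were 4178 bp apart. The AP-1 window printed for LAMB3 is thus that of BCL9.

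IL1RAP, the co-receptor of interleukin-1, had 5.88, 8.77 and 7.81 with pSTAT3 and 8.72, 7.52 and 10.3 with BCL9 (limma adjusted p = 0.423). GADD45A, a stress-induced growth arrest gene, had 4.787, 6.75 and 4.7999 with pSTAT3 and 4.93, 5.17 and 6.84 with BCL9 (limma adjusted p = 0.895). AHCY, PXN (paxillin), PHC2 (a Polycomb protein), CCL20 (a chemokine) and KCNN4 (a potassium channel) were likewise not called. SAP30BP was the exception of the 10, with 5.26, 6.09 and 4.54 for pSTAT3 and 9.89, 8.03 and 8.37 for BCL9 (difference -3.47 ± 0.99 SE, limma adjusted p = 0.0297), a call that was lost with all listed pairs (adjusted p = 0.723).

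Genes of cytokine and Wnt signalling were called 1 of 5, 2 of 7 and 2 of 6 times, shares near or below the 33.6% of all tested genes, so nothing is read from these counts. Of 22 STAT3 target genes, 5 were tested, none ranked higher with pSTAT3, and MYC ranked higher with BCL9, with levels of 4.56, 2.94 and 2.90 against 0 in each pSTAT3 library (difference -3.47 ± 0.75 SE, limma adjusted p = 0.0117). Of 20 genes of the IL6 family and JAK-STAT pathway, 7 were tested and 2 ranked higher with BCL9. These were LIF, an IL6-type cytokine (1.41, 1.92 and 1.70 against 4.18, 4.32 and 8.47, adjusted p = 0.0355), and the kinase JAK2 (0 against 2.04, 1.78 and 1.18, adjusted p = 0.0384). In the full rankings the MYC, LIF and JAK2 calls were lost, with adjusted p = 0.792, 0.608 and 0.856.

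Of 22 Wnt components and targets, 6 were tested. The BCL9 gene itself ranked higher with pSTAT3, with levels of 3.53, 4.70 and 6.85 against 2.04, 1.25 and 0 with the BCL9 antibody (difference 3.93 ± 1.06 SE, limma adjusted p = 0.0262), at an AP-1 string 2249 bp upstream of its start. RNF43, a ubiquitin ligase that removes Wnt receptors, ranked higher with BCL9 (1.91 ± 0.209 against 4.26 ± 0.342, adjusted p = 0.0441). The median difference was -2.12 over the STAT3 targets, -0.78 over the IL6 and JAK-STAT genes and 0.53 over the Wnt genes, beside -0.52 over all genes tested.

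Of 14 integrins, 7 were tested and 2 were called in opposite directions. This share of 28.6% was below the 33.6% of all tested genes, so nothing is read from it. ITGA3, the α3 chain of the laminin receptor, ranked higher with pSTAT3 (9.05, 7.24 and 8.17 against 4.93, 4.32 and 3.19, difference 4.01 ± 0.98 SE, limma adjusted p = 0.0172). Its strongest pSTAT3 pair lay 5000 bp upstream of its own TSS, at the edge of the 5 kb reach. ITGB2, the β chain of leukocyte integrins, ranked higher with BCL9 (2.95, 4.70 and 4.18 against 5.69, 7.11 and 8.72, adjusted p = 0.0439). Of the 9 cell-surface and protease genes that the study followed up (ITGB3, MMP16, FZD7, CD44, MUC1, ITGA2, ITGB4, ITGAV and ITGA4), 4 were tested and none was called. ITGB3 had levels of 0, 2.19 and 0 with pSTAT3 and 4.18, 0 and 2.04 with BCL9, and the groups overlapped (adjusted p = 0.413). MMP16, MUC1, ITGAV and ITGA4 had no pair within 5 kb of a TSS in any of the 6 compared lists. With all listed pairs, 7 of the 9 genes were tested and none was called. The study linked target genes to distal enhancers, and sites beyond this reach were not examined here.

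VIM, the mesenchymal filament gene, was the called member of the EMT list and ranked higher with pSTAT3 (2.52, 2.19 and 2.66 against 0, adjusted p = 0.0202), with an AP-1 string in the window 23 bp upstream of its TSS. The other tested EMT gene, SPARC, had a difference of -1.29 and was not called. Of 10 luminal genes, 6 were tested, and KRT7 and EPCAM ranked higher with pSTAT3 (limma adjusted p = 0.0361 and 0.0283). The EPCAM pair lay 4992 bp upstream of its own TSS, near the edge of the reach. The other tested luminal genes were not called, with differences of -1.95 at KRT19, -1.44 at KRT8, -0.58 at KRT18 and 0.06 at FOXA1. The called share of 33.3% was near the 33.6% of all tested genes, so nothing is read from it. ERBB2 was the called member of the EGF receptor list and ranked higher with BCL9 (0, 2.19 and 0 against 3.75, 6.23 and 3.19, adjusted p = 0.0333). The replication-dependent histone genes H4C8, H2AC20 and H2BC21 (the last 2 at a shared promoter) and the replication helicase gene MCM5 ranked higher with BCL9. Their differences were -3.39, -2.91, -2.91 and -2.02. Only 3 histone genes and 2 of 16 cell cycle genes were tested, and 100% and 50% of these were called, beside 33.6% of all tested genes. With so few tested, nothing is read from these shares, and a call at a gene with pairs of BCL9 alone was fixed by the filter. All 12 histone genes had a BCL9 pair in at least 1 library and 2 (16.7%) had a pSTAT3 pair, against 25.4% and 13.1% of all genes. Of 28 cytosolic ribosomal protein genes, 11 (39.3%) had a BCL9 pair and 0 a pSTAT3 pair, and none passed the filter for testing. This depended on the cut: with all listed pairs, 18 of the ribosomal protein genes were tested and 0 called. Their median difference was then 0.82, beside 0.85 over all tested genes. With all listed pairs, the calls of the BCL9 gene, ITGA3 and VIM held (adjusted p = 0.0194, 0.0483 and 0.0347), and every other call among the listed pathway and marker genes was lost.

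No member was called among the AP-1 factor, C/EBP, epithelial ETS, NF-κB, YAP/TEAD, metalloproteinase, basal epithelial and housekeeping lists. In that order, only 4, 1, 4, 3, 4, 2, 6 and 3 members were tested. With so few tested, the lack of calls does not show equal ranks, and 33.6% of all tested genes were called. Of 10 markers of stromal, endothelial and leukocyte cells, 2 had a pSTAT3 pair and 3 a BCL9 pair in at least 1 library (20% and 30%), beside 13.1% and 25.4% of all genes. Of 20 genes of other tissues, 2 had a pair with each antibody (10%). Peak lists do not measure expression, and no cell type was called from them.

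The AP-1 string separated the antibodies at promoters and away from them. The AP-1 string was in 27.3%, 23.5% and 33.7% of the pSTAT3 promoter windows and in 4.06%, 4.61% and 7.45% of the BCL9 ones. Flanking windows, placed 500 and 1000 bp away, held it in 1.51% for pSTAT3 and 1.32% for BCL9, and the ratio to the flank, averaged over libraries, was 19.1 with pSTAT3 and 4.04 with BCL9. Over 5 kb from any TSS the shares were 34.2% ± 3.20 and 11.99% ± 2.36. The antibodies did not overlap in either place.

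The NF-Y string is the pentamer CCAAT extended by CA, GA, CG or GG. It was in 11.7%, 11.8% and 12.98% of the BCL9 promoter windows and in 1.71%, 2.69% and 1.89% of the pSTAT3 ones. The mean ratio to the flank was 4.29 with BCL9 and 0.913 with pSTAT3, and 4.12% of windows around all annotated TSSs held the string. Away from promoters it was in 3.16% of pSTAT3 and 2.77% of BCL9 windows, 1.04 and 0.945 times the flanks (exact within-condition permutation p = 0.0167, adjusted 0.0429). Counted once per merged window, the promoter difference fell from -10.1 to -6.23 percentage points.

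The NRF1-type string GCGCNTGCG was in 10.53%, 6.75% and 6.82% of the pSTAT3 promoter windows and in 1.05%, 0.930% and 0.817% of the BCL9 ones. Its 10-base palindromic form was in 2.16% ± 0.780 and 0.0978% ± 0.0528, from 93 and 7 windows over the 3 libraries of each antibody. The GCGCNTGCG string and the CCAAT pentamer were searched after the palindrome and the NF-Y string had been seen to differ. The string was in 3.90% of windows around all annotated TSSs, and the GC content of promoter windows was 57.0% ± 0.586 with pSTAT3 and 56.6% ± 0.463 with BCL9.

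For AP-1, NF-Y and the NRF1 palindrome at promoters the exact permutation p of 3 against 3 was 0.1, and within condition over 10 libraries it was 0.0167 (adjusted over 18 motifs, 0.0429). ETS strings had the same p-values, as did TEAD (3.18% of pSTAT3 and 1.98% of BCL9 windows), SP/KLF (5.56% and 4.68%) and p53 family strings (0.486% and 0.0939%). C/EBP and E-box strings reached 0.1 in the 3 against 3 test only. These p-values are thus not particular to AP-1, NF-Y and NRF1. Knockdown libraries held the same order, with AP-1 in 37.7% and 7.38%, NF-Y in 1.42% and 13.1% and the NRF1 palindrome in 1.92% and 0.164% of pSTAT3 and BCL9 promoter windows. The CTCF library had 0.771%, 2.68% and 0.272%. With all listed pairs the AP-1 difference at promoters fell from 22.8 to 5.32 points and that of the NRF1 palindrome from 2.06 to 0.975, and with the 10000 strongest pairs the NF-Y difference was -16.5 points.

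**Figure D3:**
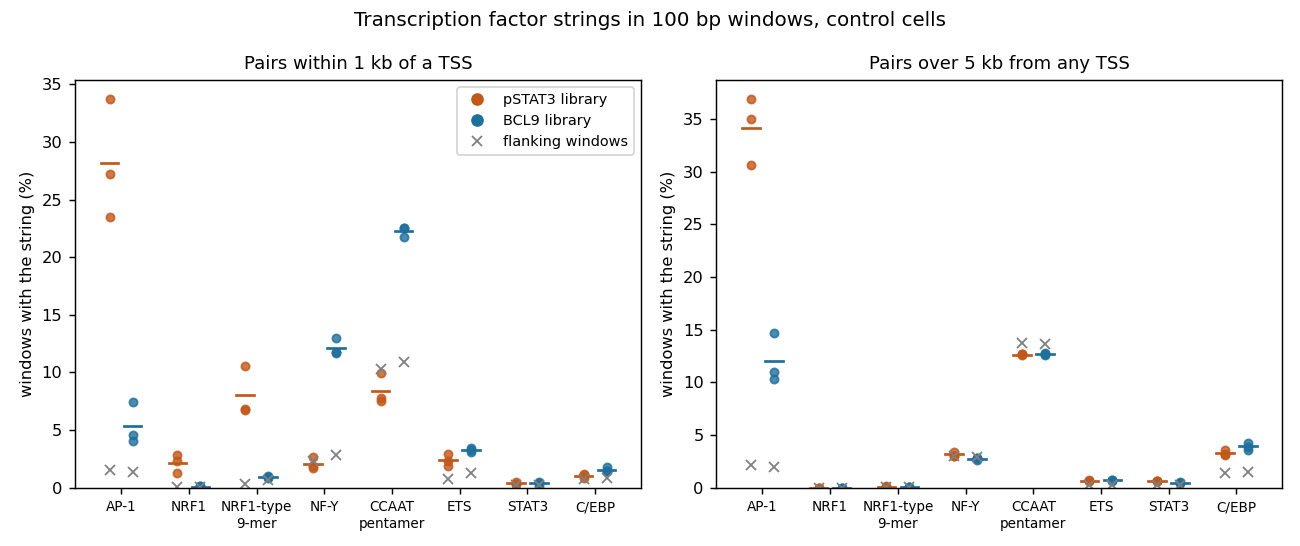
Share of 100 bp windows holding each string (y axis, percent) at promoters (left) and over 5 kb from any TSS (right); points are libraries, lines are means of 3, and grey crosses are the mean of flanking windows. AP-1 and the NRF1-type strings are higher with pSTAT3 and the NF-Y and CCAAT strings with BCL9 at promoters, while NF-Y and CCAAT lie near their flanks in distal windows.

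The STAT3 palindrome TTCCNGGAA was in 0.382% ± 0.107 of pSTAT3 and 0.368% ± 0.199 of BCL9 promoter windows, and in 0.661% ± 0.0150 and 0.487% ± 0.0452 of distal windows, 2.32 and 1.62 times their flanks. The distal difference had an exact within-condition p of 0.0167 (adjusted 0.0429), and the promoter difference had 0.517. TCF/LEF strings (CTTTGAT or CTTTGAA) were in 3.45% ± 0.0583 and 3.56% ± 0.205 of distal windows, 0.930 and 0.919 times their flanks, with an exact within-condition p of 0.367. The ETS string CCGGAAG was in 2.37% ± 0.523 and 3.28% ± 0.174 of promoter windows, and the C/EBP string TTGCNNAAT in 3.31% ± 0.270 and 3.93% ± 0.324 of distal windows, both higher with BCL9 (exact within-condition p = 0.0167, adjusted 0.0429).

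Positions within the windows also differed. In 20 bp bins within 30 bp of the pair midpoint, 7.20% ± 1.31 of the pSTAT3 promoter windows had an AP-1 match, against 1.93% ± 0.467 at 110 to 150 bp, a ratio of 3.79 (3.28 to 4.22 over libraries). The NRF1-type string had a ratio of 3.24 (2.92 to 3.44) with pSTAT3. With BCL9 the CCAAT pentamer had 6.16% ± 0.166 in the centre and 4.74% ± 0.0682 at the edge, a ratio of 1.30 (1.27 to 1.35), and 0.983 (0.782 to 1.18) with pSTAT3. The CCAAT surplus of BCL9 promoters thus spread over the whole 300 bp, while AP-1 and NRF1-type matches gathered at the midpoint of pSTAT3 pairs.

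**Figure D4:**
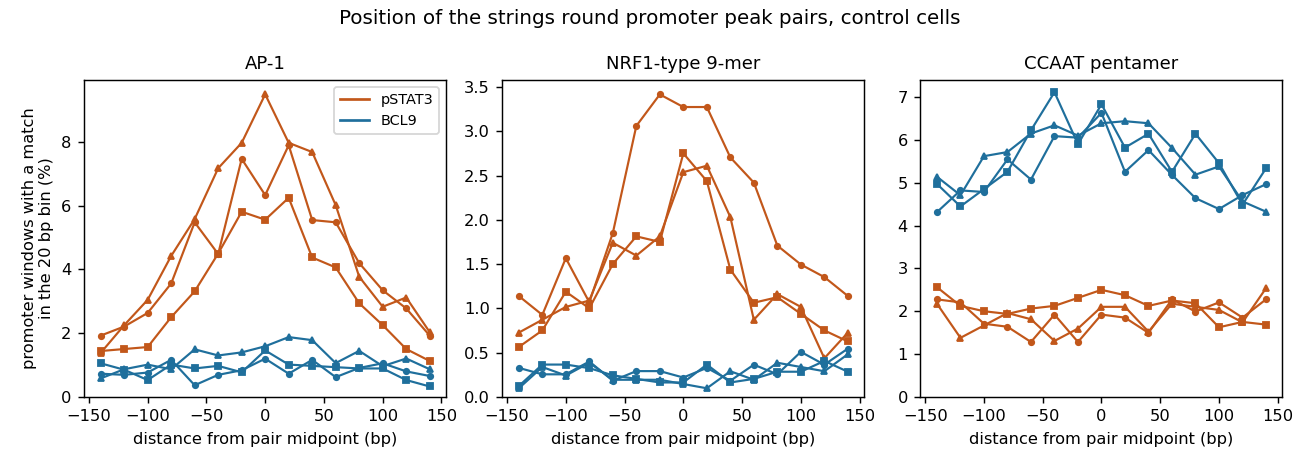
Share of promoter windows with a match in each 20 bp bin (y axis, percent) by distance from the peak pair midpoint (x axis, bp); orange lines are the 3 pSTAT3 and blue lines the 3 BCL9 libraries. AP-1 and the NRF1-type string peak at the midpoint with pSTAT3 (centre to edge ratios 3.79 and 3.24), and the CCAAT pentamer is high across the region with BCL9 (ratio 1.30).

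The windows at called genes come from the same peak pairs, mostly of the antibody for which the gene was called, so their strings restate the shares above gene by gene. Where the strongest pair lay within 1 kb of the gene's start, the window held an AP-1 string at 26 of 81 genes called for pSTAT3 (32.1%), 1 of 254 called for BCL9 (0.394%) and 94 of 445 not called (21.1%). From 1 to 5 kb the numbers were 66 of 108 (61.1%), 5 of 128 (3.91%) and 189 of 684 (27.6%). The NF-Y string was at 2 of 81 (2.47%), 58 of 254 (22.8%) and 12 of 445 (2.70%) promoter genes, and the NRF1-type string at 19 (23.5%), 3 (1.18%) and 24 (5.39%). These counts describe the called genes without a test, since genes can share a window.

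The gene differences recurred in BCL9-knock down cells, whose libraries had no part in the calls. Of the 189 genes called for pSTAT3, 162 (85.7%) had a difference of the same sign between the 2 pSTAT3 and the 2 BCL9 knockdown libraries and 19 the opposite sign. Of the 382 genes called for BCL9, 335 (87.7%) had the same sign and 5 the opposite. Among genes not called the share was 62.9%. EXOC8 had levels of 7.04 and 10.49 with pSTAT3 and 0 and 0 with BCL9 in knockdown cells, and SP2 had 0 and 0 against 14.6 and 12.3. TAGLN3 was less uniform, with 10.2 and 7.14 against 0 and 6.47. A limma test of the antibody difference between control and knockdown cells called 0 of 1700 genes at an adjusted p under 0.05 and had 104 at an unadjusted p under 0.05. In the CTCF library, at the same list length, 34 genes called for pSTAT3 (17.99%), 67 called for BCL9 (17.5%) and 290 not called (25.7%) had a pair.

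**Figure D5:**
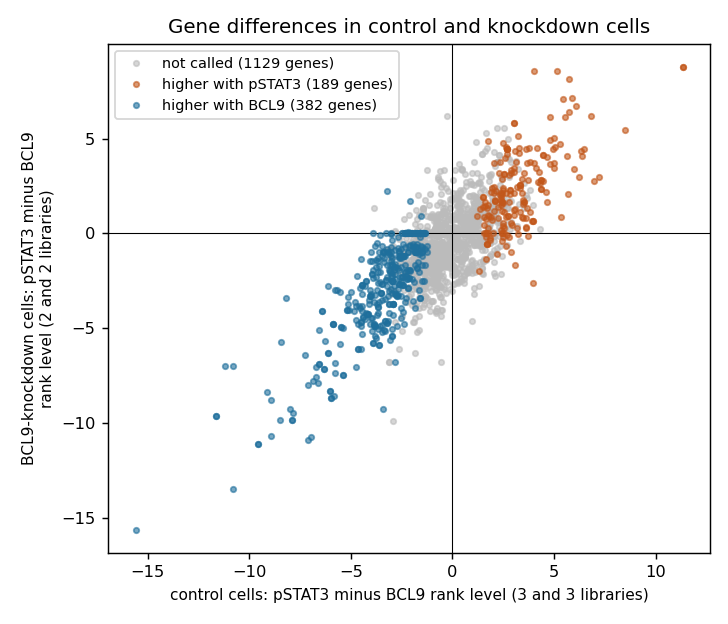
Difference in rank level, pSTAT3 minus BCL9, in control cells (x axis, means of 3 and 3 libraries) and in BCL9-knock down cells (y axis, means of 2 and 2 libraries) for the 1700 tested genes, on a log2 scale; orange points were called for pSTAT3, blue for BCL9, and grey were not called. Most called genes lie in the lower left (335 of 382 for BCL9) or upper right (162 of 189 for pSTAT3) quadrant.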

How the data were processed

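ChIP-exo, in which an exonuclease trims immunoprecipitated DNA to its crosslink borders, was done on DCIS.com cells with labelled biological replicates. The submitters' processing notes name hg19 and bcl2fastq. The study's methods name ChExMix as peak caller, whereas the deposited lists carry the tag of a peak-pairing program, so the caller of these lists is uncertain. For the aligner, no name was given in the sources used here. The deposited signal of each pair was a whole number of tags times a constant of the library. Replicate 1 of both control antibodies carries 1 run number and the others carry 3.

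Midpoints were linked to protein-coding transcript starts of 19748 genes (GENCODE, GRCh37). Lists were cut at 24728 pairs, with ties in seeded random order. Rank levels were tested with limma 3.58.1 (R 4.3.3, with trend, robust, Benjamini-Hochberg adjustment, threshold 0.05). The fit was also run on simulated levels. These had no floor at 0, so that run cannot speak for genes without a pair of an antibody. Shares were compared by two-sided exact permutation over libraries, and strings were searched in 100 bp windows. Depth beyond the listed tags is unknown. Members and lists were chosen with earlier results of these data known. Genes were named if they were among the 10 largest differences per direction without overlap, the 10 highest in every library, or called or highest members of the gene lists.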

Additional observations from a re-analysis of the deposited data

How the results depend on the processing

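The shares kept their direction in every alternative except the share of genes with a pair, which reversed to 24.6 percentage points with all listed pairs and to 1.72 with at least 9 tags. Sizes moved more: with all listed pairs the intergenic difference fell from 3.67 to 0.718 points, AP-1 over all windows from 22.7 to 5.80 (13.5 in 50 bp windows) and promoter AP-1 to 5.32, and the intergenic difference was 1.77 with at least 9 tags. Permuting all 10 libraries within condition brought the exact p to 0.0167 for the promoter share (-4.73 points), the intergenic share (4.34), the AP-1 share (22.8), the share of genes (-6.13) and the promoter shares of AP-1 (26.5), NRF1 (1.91) and NF-Y (-10.9). These motif alternatives and the merged windows were chosen after seeing the data. The 189 genes higher with pSTAT3 became 113 with the 10000 strongest pairs, 118 with all listed pairs, 80 with at least 9 tags, 98 with a reach of 1 kb, 82 with absent genes set at the list length and 87 with genes in at least 1 library. The 382 genes higher with BCL9 became 205, 48, 61, 255, 167 and 193. Leaving out 1 library gave 47 to 90 and 82 to 274 genes. Without both libraries numbered 1, limma called 0 and 3 genes (565 at an unadjusted p under 0.05), on 4 libraries. In all these fits except 5 (all listed pairs, at least 9 tags, both other reaches and the number of pairs), each called gene that was tested kept its sign. The cause of the other changes was not tested.

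Same-numbered libraries did not deviate together (correlations 0.00346, -0.0184 and 0.0549), and not every library correlated best with its own number. With the replicate number as a block, 153 and 304 genes were called. Low tag numbers limit the list members: a level near 1 rests on pairs of 5 to 19 tags.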
